A study of Mus musculus with 23 samples.

Results

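Erythroblastic islands are clusters in which a central macrophage holds and feeds maturing erythroblasts and engulfs the nuclei that they expel. The macrophage binds erythroblasts through adhesion molecules of the immunoglobulin and integrin families and through a sialic acid binding lectin, and it digests the DNA of expelled nuclei in its lysosomes with an acid nuclease. The erythropoietin receptor is best known on erythroid progenitors, and in mice it has also been described on island macrophages. The 8 genes described here were chosen by name for these roles, with earlier results of these data known. Vcam1, Siglec1, Maea, Itgav, Icam1 and Pecam1 encode adhesion molecules, Dnase2a encodes the lysosomal nuclease, and Epor encodes the erythropoietin receptor. Each has 1 row in both deposited tables, which list 22524 and 25700 genes, and all 8 passed the filter on low values in both.

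Messenger RNA was sequenced from sorted macrophages of C57BL/6 mice, 1000 cells per library, in 23 libraries of 8 groups. In the first table, spleen macrophages of 7-day-old pups formed the groups RPM_d7_vavCre and RPM_d7_WT, and bone marrow macrophages of the same age formed BMM_d7_vavCre and BMM_d7_WT, with 3 libraries each. The other table held day-7 spleen macrophages of the groups RPM_d7_Spic_KO (2 libraries) and RPM_d7_Spic_WT (3 libraries), and spleen macrophages of adults in the groups RPM_TAM_CreERT2 (4 libraries) and RPM_TAM_WT (2 libraries). RPM stands for red pulp macrophage, as the labels' source names say. The design text of the series speaks of the few red-pulp-like and island-like macrophages left without Pparg, the gene of a nuclear receptor that senses fatty acids. No label names a floxed allele, so the gene deleted by either Cre is not stated for any library. The vavCre recombinase is driven by the Vav promoter, active in blood cells and their progenitors, and CreERT2 denotes a recombinase fused to a receptor domain that responds to tamoxifen. The labels do not give the promoter of CreERT2, do not explain TAM, and do not say whether replicates were separate animals, so p-values measure the spread between these libraries, which may be technical.

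Values are normalised read counts, called levels below, and compare within a table only. Recovered reads per library came to 4.26 to 21.7 M reads (1 M is 1000000) in the first table and 0.693 to 6.29 M reads in the other. A member's level rested on 35 to 140719 reads in the first table and on 31 to 31736 in the other. All 11 listed macrophage markers, among them Csf1r and C1qa, were above 0 in every group. Pparg stood at 3037 ± 838 in RPM_d7_vavCre against 1788 ± 299 in RPM_d7_WT (SD, n = 3 each; log2 change 0.74, limma adjusted p = 0.0313). Loss of part of a transcript would not show in such a sum, and the vavCre label is not checked by it. In the libraries labelled Spic_KO, Spic stood at 1084 ± 216 against 2435 ± 594 in RPM_d7_Spic_WT, and Pparg at 23.9 ± 3.04 against 254.1 ± 66.3 (SD, n = 2 and 3). The adult library RPM_TAM_CreERT2 replicate 2 was the shallowest, with 0.693 M reads.

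In day-7 spleen, 4 of the 8 genes fell in vavCre macrophages (Vcam1, Siglec1, Epor and Pecam1) and 0 rose. In marrow 5 fell (the same 4 and Itgav) and Icam1 rose. The falls were by 1.72-fold to 2.54-fold in spleen and by 1.72-fold to 6.31-fold in marrow on the fitted scale. The test was limma-trend on log2(level + 1) with Benjamini-Hochberg adjustment over all 15130 genes tested, with a call at an adjusted p under 0.05. Of all genes tested, 5.52% were called in spleen (2.54% fell and 2.98% rose) and 7.81% in marrow (4.4% fell and 3.41% rose). The median log2 change of the 8 genes was -0.64 in spleen and -1.15 in marrow, beside -0.02 and -0.04 over all genes tested. Of 9 red pulp macrophage markers, 5 fell and 1 rose in each tissue. Of 11 general macrophage markers, 2 rose and 0 fell in spleen, and 3 rose and 2 fell in marrow. In bulk samples a smaller share of cells with a gene and less of its RNA per cell cannot be told apart.

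**Figure D1:**
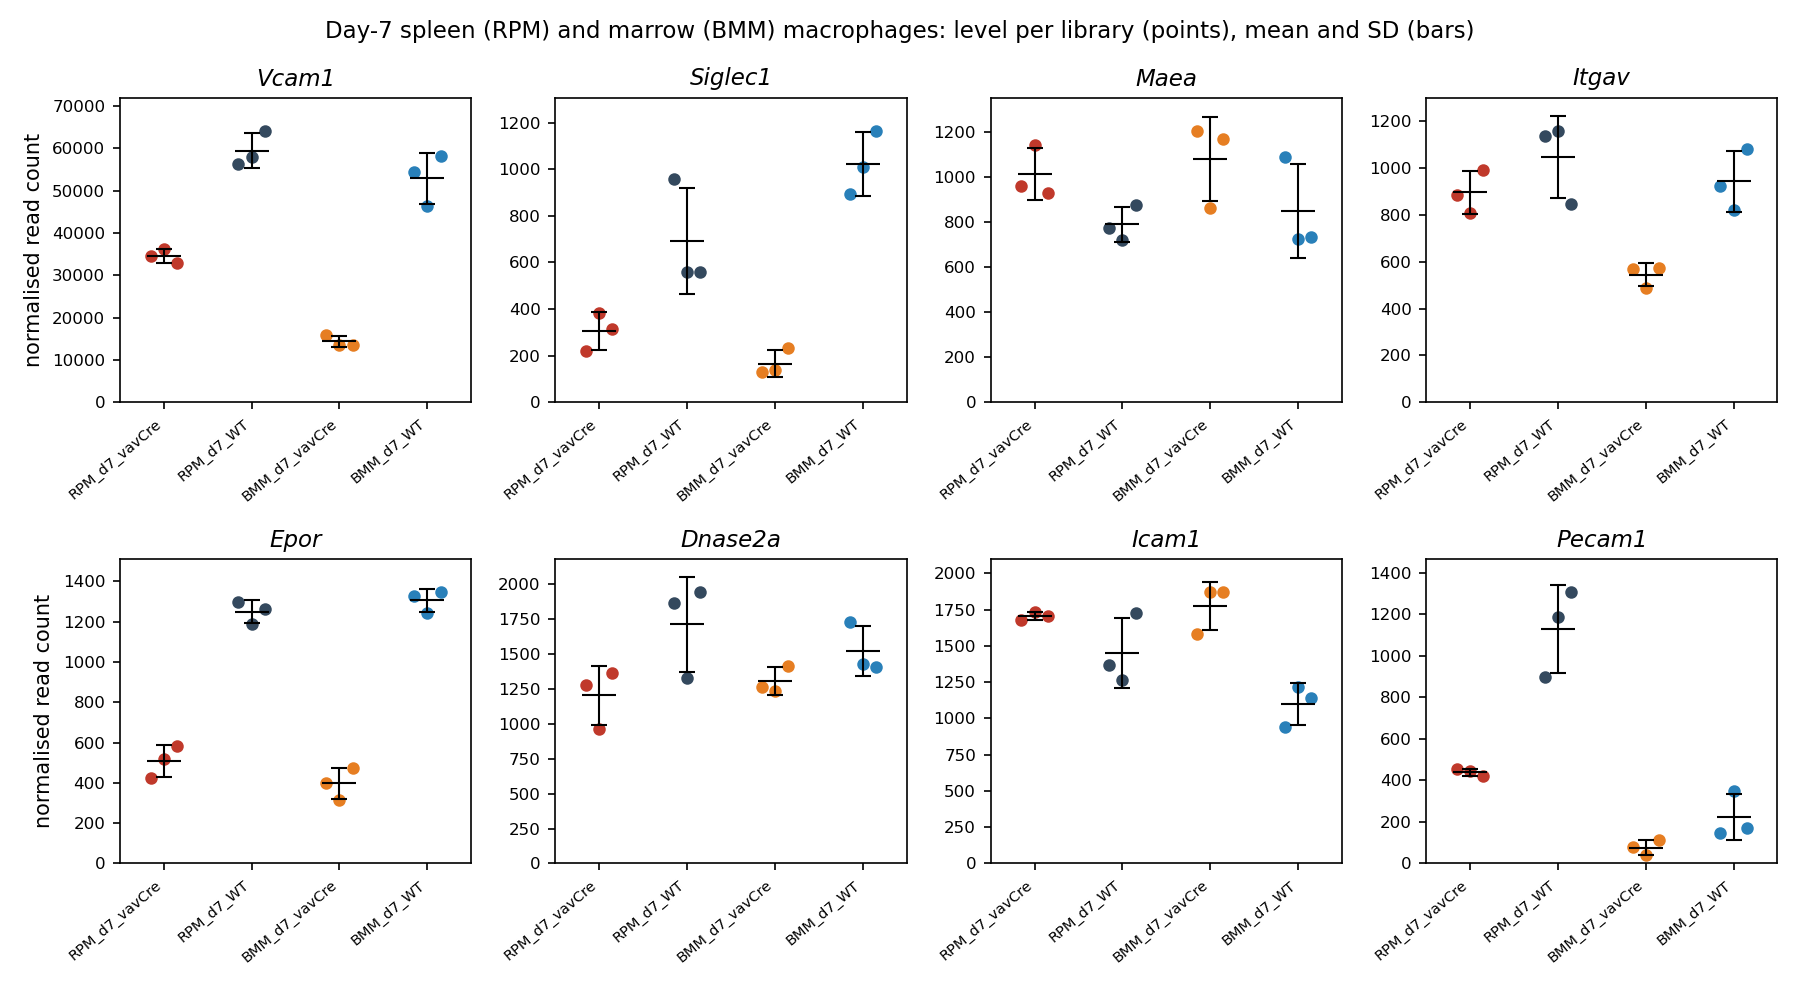
Level of each gene in the 12 libraries of the first table, as normalised read counts on an axis that starts at 0 (points: libraries; long bar: mean; whiskers: SD; n = 3 per group). The vavCre points of Vcam1, Siglec1, Epor and Pecam1 lie below all wild-type points of the same tissue, and those of Maea and Dnase2a do not separate in both tissues.

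Vcam1 (ENSMUSG00000027962, chromosome 3, 116109949 to 116129688, minus strand, GRCm38) encodes a cell surface ligand that holds an integrin of erythroblasts. Its splenic level was 34620, 36170 and 32840 in RPM_d7_vavCre, against 56220, 57970 and 64210 in RPM_d7_WT. The groups did not overlap, and the fall was -0.78 ± 0.09 on the log2 scale (SE; limma adjusted p = 1.56e-05). In marrow the level was 15970, 13590 and 13580 in BMM_d7_vavCre, against 54420, 46330 and 58170 in BMM_d7_WT. The groups lay far apart here, with the vavCre mean at 27.1% of wild type, against 58.1% in spleen. The marrow fall was -1.88 ± 0.09 (SE; limma adjusted p = 3.63e-10). The difference between the log2 changes, spleen minus marrow, was 1.1 ± 0.13 (SE; 95% interval 0.82 to 1.37; limma adjusted p = 0.000584). Vcam1 was the member that passed this test of the difference, in which 0.119% of all genes were called, 0.112% with a higher value in spleen and 0.00661% with a lower one.

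Vcam1 was also the most abundant of the 8 genes per length. Per kilobase of annotated exon (8.87 kb) its mean level was 3894 in RPM_d7_vavCre and 6704 in RPM_d7_WT, which is place 107 and place 49 among the tested genes with an annotated length. In marrow it was 1621 in BMM_d7_vavCre and 5972 in BMM_d7_WT, place 297 and place 59. It therefore stayed above 98.0% of these genes in the group where it was lowest. Vcam1 is also made by endothelial and stromal cells. The 12 endothelial markers, Cdh5 and Kdr among them, summed to 139 to 239 in RPM_d7_vavCre and 107 to 323 in RPM_d7_WT, and to 149 to 382 in BMM_d7_vavCre and 206 to 555 in BMM_d7_WT. Limma and edgeR called 0 of the 12 in either tissue, with 1 in spleen and 0 in marrow at an unadjusted p under 0.05, and DESeq2 called 1 in spleen. The 10 stromal markers summed to 179 to 891 in RPM_d7_vavCre and 145 to 1879 in RPM_d7_WT, and to 862 to 3116 in BMM_d7_vavCre and 2241 to 5410 in BMM_d7_WT. Limma called 1 of the 10 in marrow, Adipoq, which fell, and 0 in spleen. EdgeR called 0 in either tissue, and DESeq2 called 1 in each. Of all genes tested limma called 5.52% in spleen and 7.81% in marrow. The part of endothelial and stromal cells in the Vcam1 values was not tested.

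Siglec1 (ENSMUSG00000027322, chromosome 2, 131069220 to 131086765, minus strand) encodes sialoadhesin, the CD169 lectin that binds sialic acids on neighbouring cells. In spleen its level was 219.7, 381.5 and 316.5 in RPM_d7_vavCre, against 957.2, 560.1 and 559.0 in RPM_d7_WT. All vavCre libraries were lower, and wild-type replicate 1 stood above its group. The log2 change was -1.16 ± 0.30 (SE; limma adjusted p = 0.025). The call was lost without RPM_d7_WT replicate 1 (limma adjusted p = 0.175), RPM_d7_vavCre replicate 1 (0.124) or RPM_d7_vavCre replicate 3 (0.0631), over a range of 0.00156 to 0.175 in 16 alternatives. In marrow its level was 129.8, 137.0 and 230.9 in BMM_d7_vavCre, against 892.9, 1008 and 1166 in BMM_d7_WT. This was the strongest fall of the 8 genes in either tissue, at -2.66 ± 0.30 (SE; limma adjusted p = 1.07e-05), with the vavCre mean at 16.2% of wild type. The difference between the log2 changes, spleen minus marrow, was 1.49 ± 0.42 and did not pass (95% interval 0.61 to 2.38 before adjustment; limma adjusted p = 0.379).

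Of the other lectins of the Siglec family, 8 were listed and 7 tested. By limma 2 of them rose in each tissue and 0 fell, with a median log2 change of 0.42 in spleen and 0.26 in marrow. Limma called 5.52% of all genes tested in spleen and 7.81% in marrow. Cd33, an inhibitory Siglec of myeloid cells, rose to 1600 ± 162 in RPM_d7_vavCre against 331.7 ± 141 in RPM_d7_WT (SD, n = 3 each; log2 change 2.34, limma adjusted p = 1e-05). In marrow Cd33 rose to 1112 ± 213 in BMM_d7_vavCre against 264.9 ± 53.5 in BMM_d7_WT (log2 change 2.07, limma adjusted p = 5.07e-05). The others were Cd22 in spleen (1.38) and Siglece in marrow (1.39). The 8 neutrophil markers summed to 2444 to 5465 in RPM_d7_vavCre and 318 to 2425 in RPM_d7_WT. In marrow they summed to 1313 to 1928 in BMM_d7_vavCre and 961 to 4206 in BMM_d7_WT, and limma called 0 of the 8 in either tissue. The part of neutrophils in the values of Cd33, and of Itgal and Itgam below, was not tested.

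Itgav (ENSMUSG00000027087, chromosome 2, 83724397 to 83806916, plus strand) encodes the integrin chain alpha V, which on macrophages binds the erythroblast protein encoded by Icam4. In spleen its level was 886.8, 808.8 and 991.6 in RPM_d7_vavCre, against 1139, 1160 and 845.1 in RPM_d7_WT. These groups overlapped, and the log2 change of -0.22 ± 0.19 did not pass (SE; limma adjusted p = 0.691). In marrow its level was 569.4, 488.5 and 574.9 in BMM_d7_vavCre, against 925.0, 822.6 and 1081 in BMM_d7_WT. All vavCre libraries were lower, and the fall was -0.79 ± 0.19 (SE; limma adjusted p = 0.0156). The call was lost without BMM_d7_WT replicate 3 (limma adjusted p = 0.0767) or BMM_d7_vavCre replicate 2 (0.051) and in a fit of the marrow libraries alone (0.0736), over a range of 0.00157 to 0.0767 in 16 alternatives. The difference between tissues did not pass (0.57 ± 0.27, SE; limma adjusted p = 0.803).

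Among 18 listed integrin chains and immunoglobulin-type ligands, 4 fell and 2 rose in spleen, and 2 fell and 1 rose in marrow, with medians of -0.47 and -0.12 on the log2 scale. Of all genes tested 5.52% were called in spleen and 7.81% in marrow. The gene with the smallest p among those that rose was Itgal, the alpha chain of a leukocyte integrin that binds ICAM1 (log2 change 2.86 in spleen and 2.23 in marrow). Itgal stood at 1579 ± 172 in RPM_d7_vavCre against 228.8 ± 101 in RPM_d7_WT, and at 1185 ± 143 in BMM_d7_vavCre against 269.0 ± 128 in BMM_d7_WT (SD, n = 3 each). Itgad, a red pulp macrophage marker of the same family, fell in spleen and marrow (-6.35 and -9.34). The other calls, named after their values were seen, were a rise of Itgam (1.89) and falls of F11r (-1.80), Itgax (-3.20) and Itgb2 (-0.62) in spleen. Itgb2 encodes the beta chain that pairs with the products of Itgal, Itgam, Itgax and Itgad. In marrow Icam4, the remaining call and also named after its value was seen, fell to 18.2 ± 12.5 in BMM_d7_vavCre against 111 ± 56.0 in BMM_d7_WT (log2 change -2.71, limma adjusted p = 0.0161). Icam4 is an erythroid gene, and erythroid markers moved the same way in these libraries (values beside Epor).

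Maea (ENSMUSG00000079562, chromosome 5, 33335509 to 33373296, plus strand) encodes a protein first described as the attachment molecule between erythroblasts and macrophages, and later as a subunit of the CTLH ubiquitin ligase. Its level was 959.8, 1144 and 930.6 in RPM_d7_vavCre, against 774.7, 720.5 and 874.3 in RPM_d7_WT, and 1206, 864.2 and 1168 in BMM_d7_vavCre, against 1088, 722.7 and 735.8 in BMM_d7_WT. The splenic groups did not overlap and the marrow groups did. Neither change passed (log2 change 0.35 and 0.36, 95% intervals -0.07 to 0.78 and -0.07 to 0.79; limma adjusted p = 0.444 and 0.349). The intervals exclude a loss of the size seen for Vcam1 in either tissue. Of the 10 other CTLH subunits listed, such as Rmnd5a and Ranbp9, 0 passed in either tissue by limma, edgeR or DESeq2, with 2 in each at an unadjusted p under 0.05. Their median log2 change was -0.11 in spleen and -0.10 in marrow, where limma called 5.52% and 7.81% of all genes tested.

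Icam1 (ENSMUSG00000037405, chromosome 9, 21015985 to 21028817, plus strand) encodes a ligand of leukocyte integrins that is induced by inflammatory signals. In spleen its level was 1680, 1735 and 1706 in RPM_d7_vavCre, against 1366, 1266 and 1725 in RPM_d7_WT. Wild-type replicate 3 reached the vavCre libraries, and the log2 change of 0.25 ± 0.16 did not pass (SE; limma adjusted p = 0.535). In marrow its level was 1583, 1873 and 1872 in BMM_d7_vavCre, against 939.1, 1217 and 1141 in BMM_d7_WT. It was the member that rose, by 0.70 ± 0.16 (SE; limma adjusted p = 0.011), a call lost without BMM_d7_WT replicate 1 (0.0537) and in a fit of the marrow libraries alone (0.0503), and held in 14 of 16 alternatives (0.000681 to 0.0537). The difference between tissues did not pass (-0.45, 95% interval -0.93 to 0.03; limma adjusted p = 0.825).

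Pecam1 (ENSMUSG00000020717, chromosome 11, 106654217 to 106750628, minus strand) encodes CD31, which binds itself on neighbouring cells and is best known from endothelium and platelets. In spleen its level was 452.3, 445.1 and 420.5 in RPM_d7_vavCre, against 895.5, 1185 and 1307 in RPM_d7_WT. The vavCre libraries lay close together and below all wild-type ones, with a log2 change of -1.34 ± 0.37 (SE; limma adjusted p = 0.0363). That call was lost when any 1 of the 6 spleen libraries was left out (limma adjusted p = 0.0615 to 0.156; log2 changes -1.50 to -1.23) and with no filter on low values (0.0592), and was kept by edgeR and DESeq2 on recovered reads. In marrow its level was 77.5, 42.4 and 110.9 in BMM_d7_vavCre, against 146.8, 348.7 and 170.4 in BMM_d7_WT. Wild-type replicate 2 stood above its group, and the fall of -1.51 ± 0.37 (SE; limma adjusted p = 0.0138) was lost without BMM_d7_WT replicate 2 (0.0696) or BMM_d7_vavCre replicate 2 (0.0581) and in a fit of the marrow libraries alone (0.178). The summed endothelial markers of wild-type replicate 2, at 205.8, were the lowest of the 3 BMM_d7_WT libraries, and the summed megakaryocyte markers, at 240.0, the highest. The 9 megakaryocyte markers, Itga2b and Gp9 among them, summed to 125 to 198 in RPM_d7_vavCre and 114 to 527 in RPM_d7_WT, and to 52.1 to 113 in BMM_d7_vavCre and 88.5 to 240.0 in BMM_d7_WT. Gp9 itself fell in marrow, to 1.51 ± 2.61 in BMM_d7_vavCre against 43.9 ± 35.4 in BMM_d7_WT (SD, n = 3 each; log2 change -4.18, limma adjusted p = 0.038). The part of these cells in the Pecam1 values was not tested.

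Epor (ENSMUSG00000006235, chromosome 9, 21958897 to 21963506, minus strand) encodes the erythropoietin receptor. Levels in spleen were 422.8, 518.0 and 583.1 in RPM_d7_vavCre, against 1297, 1187 and 1263 in RPM_d7_WT. Levels in marrow were 401.9, 316.3 and 473.0 in BMM_d7_vavCre, against 1329, 1241 and 1348 in BMM_d7_WT. The wild-type libraries of both tissues varied little (coefficient of variation 4.51% in RPM_d7_WT and 4.37% in BMM_d7_WT), and no vavCre library came near them. The log2 change was -1.31 ± 0.20 in spleen and -1.73 ± 0.20 in marrow (SE; limma adjusted p = 0.000281 and 1.5e-05). The difference between these changes did not pass (0.43, 95% interval -0.17 to 1.02; limma adjusted p = 0.882).

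Erythroid markers moved with Epor in these libraries. Of 16 listed, 10 fell in spleen and 14 in marrow, and 0 rose. The 12 without the globin genes, such as Klf1 and Alas2, summed to 7364 to 11005 in RPM_d7_vavCre against 20577 to 23940 in RPM_d7_WT, and to 4215 to 6877 in BMM_d7_vavCre against 12722 to 19395 in BMM_d7_WT. In BMM_d7_WT replicates 1, 2 and 3 the sums were 19395, 12722 and 16587, beside Epor levels of 1329, 1241 and 1348. The part of erythroid RNA in the Epor values was not tested. Among 15 listed genes that carry or dampen the receptor's signal, limma called 1 in each tissue, beside 5.52% of all genes in spleen and 7.81% in marrow. Socs2, a feedback inhibitor of cytokine signalling, fell in spleen to 132 ± 35.9 in RPM_d7_vavCre against 458.8 ± 108 in RPM_d7_WT (log2 change -1.80, limma adjusted p = 0.0268). In marrow Ptpn6, a phosphatase that ends receptor signalling, rose to 3544 ± 136 in BMM_d7_vavCre against 2163 ± 184 in BMM_d7_WT (0.71, limma adjusted p = 0.00352).

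**Figure D2:**
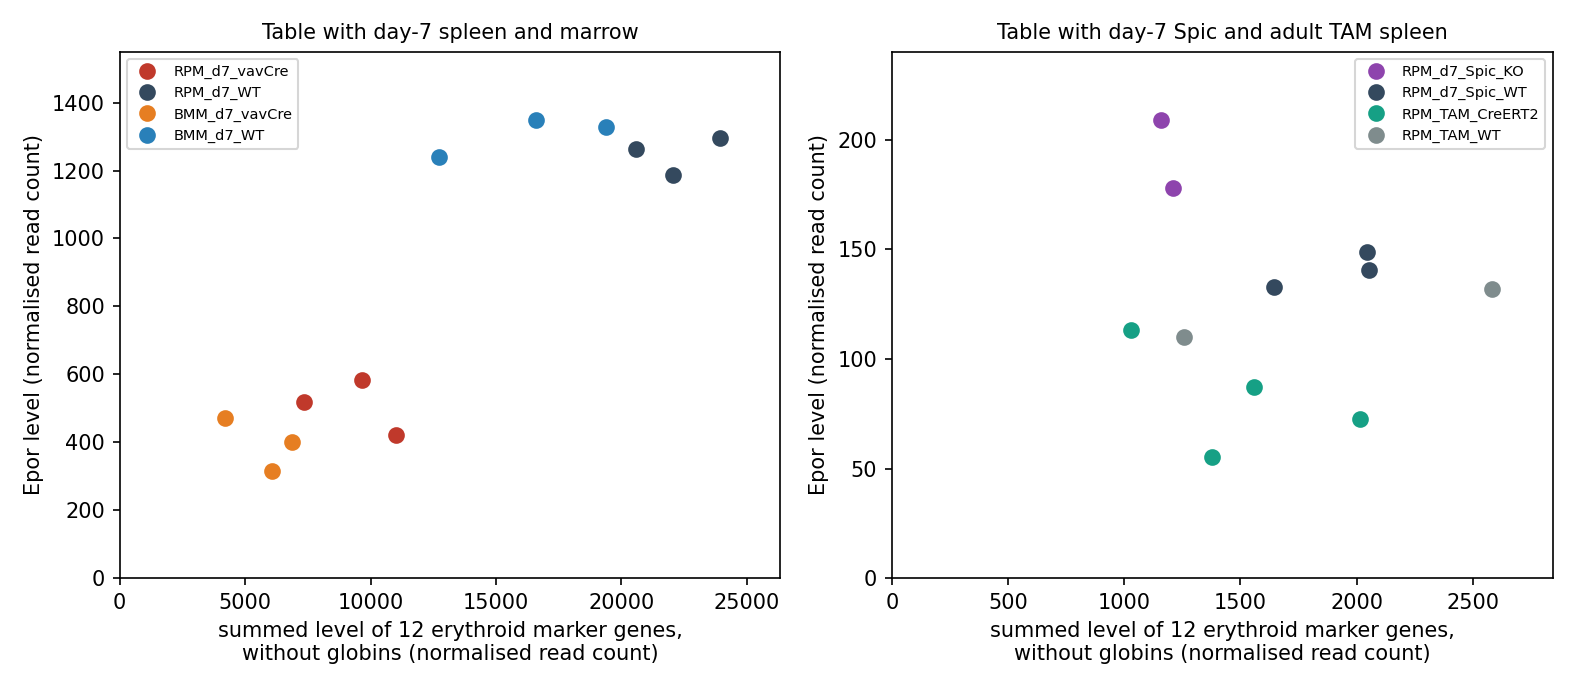
Epor level (y axis) against the summed level of 12 erythroid marker genes without globins (x axis) in each library, both as normalised read counts on axes that start at 0, with the first table on the left and the other on the right. On the left the vavCre libraries of either tissue lie low on both axes, and on the right the 2 RPM_d7_Spic_KO libraries hold the highest Epor levels at marker sums of 1158 and 1209.

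The bases upstream of the start site are shown for the 3 members that moved in marrow and have an entry in RefSeq's promoter table, which matched 4 of the 8 genes (GRCm38.p6; the fourth is Dnase2a). Each sequence is the 250 bases before the start in RefSeq, 5′ to 3′ on the gene's strand. For Epor and Icam1 this start lies upstream of the gene span printed above, which is from GENCODE. Capitals mark matches on either strand to any of 4 motifs, AGATAA for factors of the GATA family, GAGGAAGT (SPIC and related ETS factors), GGNNNTTCC (NF-kB) and AGGTCA (part of the element bound by PPAR and RXR). Epor lies at chr9:21963577-21963826 (minus strand), Itgav at chr2:83724147-83724396 (plus strand) and Icam1 at chr9:21015690-21015939 (plus strand).
Epor: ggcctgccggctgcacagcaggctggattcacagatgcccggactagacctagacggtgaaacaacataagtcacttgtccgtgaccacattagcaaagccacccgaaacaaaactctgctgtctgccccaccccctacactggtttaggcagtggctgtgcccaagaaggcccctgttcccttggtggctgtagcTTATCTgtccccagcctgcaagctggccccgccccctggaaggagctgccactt
Itgav: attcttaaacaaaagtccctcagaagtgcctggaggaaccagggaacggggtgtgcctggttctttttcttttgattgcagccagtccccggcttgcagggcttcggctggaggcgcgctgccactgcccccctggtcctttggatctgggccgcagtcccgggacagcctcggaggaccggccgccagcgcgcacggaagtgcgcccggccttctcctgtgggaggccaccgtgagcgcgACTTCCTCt
Icam1: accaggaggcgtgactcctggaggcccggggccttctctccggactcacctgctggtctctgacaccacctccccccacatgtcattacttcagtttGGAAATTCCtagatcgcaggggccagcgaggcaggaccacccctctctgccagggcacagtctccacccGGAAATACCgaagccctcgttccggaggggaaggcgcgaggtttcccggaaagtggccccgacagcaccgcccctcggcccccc
Epor, which fell in both tissues, holds 1 GATA match on the opposite strand, which begins 54 bases before the start. Of the 32851 promoter windows of this length 9.99% hold that motif. Itgav, which fell in marrow, holds 1 ETS match on the opposite strand, which begins 9 bases before the start and whose motif occurs in 2.44% of windows. Icam1, which rose in marrow, holds NF-kB matches at 153 and 84 bases before the start, the first of them on both strands, and 15.7% of windows hold that motif. The PPAR and RXR motif, present in 14.0% of windows, has no match in these letters. Motif matches describe letters only.

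Dnase2a (ENSMUSG00000003812, chromosome 8, 84908560 to 84922915, plus strand) encodes DNase II, the lysosomal enzyme that digests the DNA of engulfed nuclei. Levels in spleen were 1282, 966.5 and 1364 in RPM_d7_vavCre, against 1869, 1326 and 1947 in RPM_d7_WT. Levels in marrow were 1264, 1234 and 1419 in BMM_d7_vavCre, against 1731, 1427 and 1408 in BMM_d7_WT. Both pairs of groups overlapped, by 1 wild-type library in spleen. Neither change passed (log2 change -0.50 and -0.22, 95% intervals -0.89 to -0.12 and -0.60 to 0.17; limma adjusted p = 0.14 and 0.56). Its exons share 1616 bases with Mast1 on the opposite strand, whose level reached at most 136 in the first table.

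Of 15 other genes of DNA digestion and sensing that were tested, 1 rose and 1 fell in spleen, and 2 rose and 1 fell in marrow, with medians of 0.26 and 0.32 on the log2 scale, where 5.52% and 7.81% of all genes were called. Pld3, a lysosomal exonuclease, fell to 8321 ± 29.1 in RPM_d7_vavCre against 18230 ± 2386 in RPM_d7_WT (log2 change -1.12, limma adjusted p = 1.69e-06). In marrow Pld3 fell to 6507 ± 216 in BMM_d7_vavCre against 19383 ± 2627 in BMM_d7_WT (-1.57, limma adjusted p = 1.95e-08). Dnase1l3, a secreted DNase, went the other way, with a rise of 2 in spleen and 1.57 in marrow. Pld4, a paralog of Pld3 named after its value was seen, rose in marrow by 0.58 (limma adjusted p = 0.0214).

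The wild-type libraries of the first table asked whether splenic and marrow macrophages differ in these genes. Pecam1 was the single member past the threshold, higher in spleen at 895.5 to 1307 in RPM_d7_WT against 146.8 to 348.7 in BMM_d7_WT. Its log2 difference was 2.43 ± 0.37 (SE; limma adjusted p = 0.000551), a 5.39-fold higher fitted level. Of all genes tested 3.89% were called, 2.07% higher in spleen and 1.82% lower. Vcam1, Maea, Itgav, Epor and Dnase2a overlapped between the tissues, with log2 differences of -0.08 to 0.17 and no call. Siglec1 was lower in spleen on average (692 ± 230 in RPM_d7_WT and 1022 ± 137 in BMM_d7_WT), and Icam1 higher (1452 ± 241 and 1099 ± 144), and neither passed (limma adjusted p = 0.338 and 0.224).

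Between the tissues of vavCre pups 3 members were higher in spleen and 0 lower, where 3.5% of all genes tested were called, 2.68% higher and 0.82% lower. Vcam1 was 2.41-fold higher in RPM_d7_vavCre than in BMM_d7_vavCre (log2 difference 1.27 ± 0.09, limma adjusted p = 8.34e-08). Pecam1 was 6.07-fold higher (2.60 ± 0.37, limma adjusted p = 0.00023), beside the 5.39-fold of wild type. Itgav was higher by 0.72 ± 0.19 (limma adjusted p = 0.0476), a call that held in 5 of 16 alternatives (0.0105 to 0.181) and was lost when any 1 of the 6 vavCre libraries was left out. Siglec1, at 305.9 ± 81.4 in RPM_d7_vavCre and 165.9 ± 56.4 in BMM_d7_vavCre, overlapped and did not pass (limma adjusted p = 0.121). These 2 tissue comparisons share libraries with the vavCre comparisons and are not independent of them. Tissue and read depth go together in both, and Pecam1 rested on 35 to 49 reads in BMM_d7_vavCre.

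**Figure D3:**
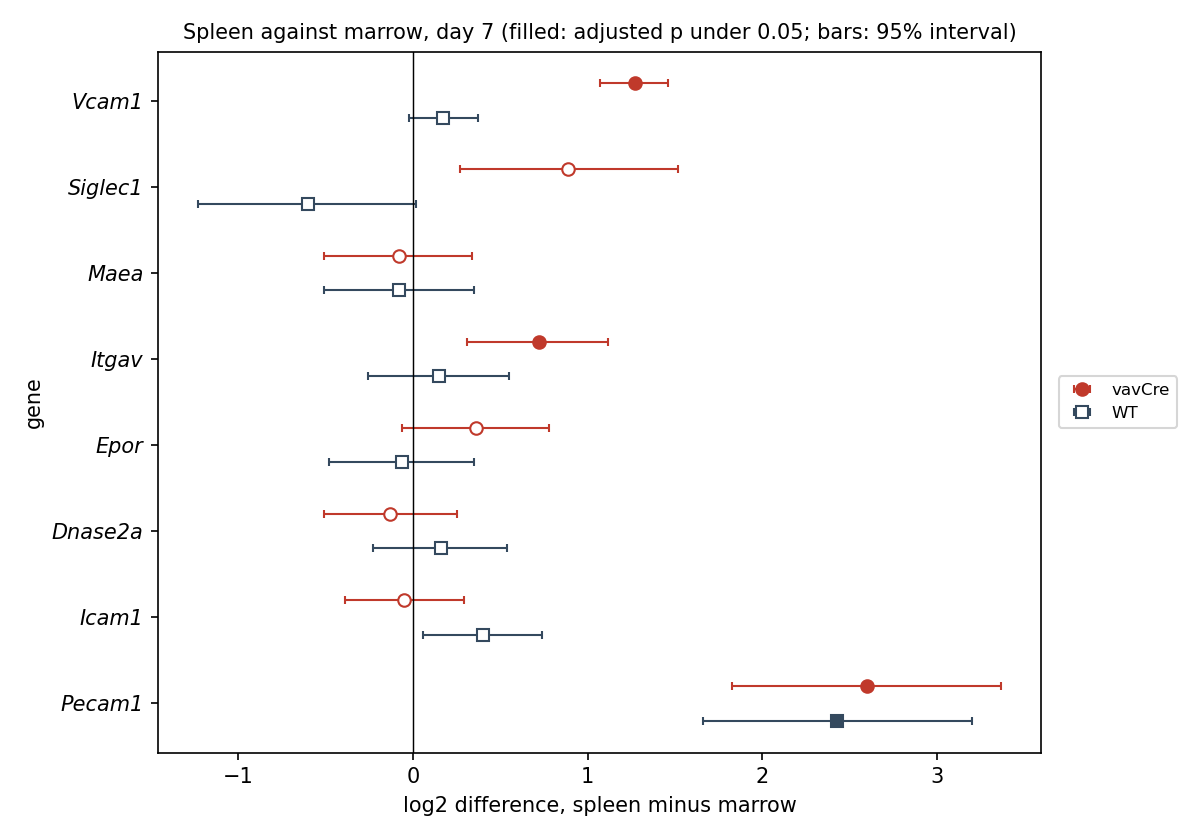
Log2 difference between spleen and marrow at day 7 for each gene in vavCre and in wild-type pups (points: estimate; bars: 95% interval before adjustment; filled: adjusted p under 0.05; positive: higher in spleen). Pecam1 lies at 2.60 in vavCre and 2.43 in wild type, and Vcam1 at 1.27 in vavCre and 0.17 in wild type.

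The order of mean levels over the 4 groups of the first table differed between genes. For Vcam1 it ran RPM_d7_WT, BMM_d7_WT, RPM_d7_vavCre, BMM_d7_vavCre from high to low, and the 2 wild-type groups overlapped. For Siglec1 and Epor it ran BMM_d7_WT, RPM_d7_WT, RPM_d7_vavCre, BMM_d7_vavCre, with a gap between the wild-type and vavCre groups and overlap within each pair. For Pecam1 it ran RPM_d7_WT, RPM_d7_vavCre, BMM_d7_WT, BMM_d7_vavCre, and no neighbours overlapped. For Itgav the lowest group, BMM_d7_vavCre, stood apart from 3 overlapping ones, and for Icam1 the lowest group, BMM_d7_WT, did. All neighbours overlapped for Maea and for Dnase2a.

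The genes whose pattern over the 12 libraries was nearest to a member's were found by the root mean square difference of log2 levels, each centred on its own mean, among 10434 genes with a mean level of at least 20. Lyar and Cd24a were nearest to Vcam1 (0.25 and 0.25), where the median gene lay at 0.94. Pank1 and Hist1h2ae were nearest to Siglec1 (0.43 and 0.43), Hist1h2ae and Pld3 to Epor (0.16 and 0.21), and Treml4, a red pulp macrophage marker, and Tspan13 to Pecam1 (0.44 and 0.46). Baz2a and Atp8a1 were nearest to Itgav (0.16 and 0.16), and Nucb1 and Erp44 to Icam1 (0.09 and 0.10). These distances are descriptions, and the libraries share their tissue and genotype.

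The comparison of Spic_KO with Spic_WT asked how these genes stand in day-7 red pulp macrophages whose labels name the transcription factor SPIC. Vcam1 fell and the other 7 genes did not pass, where 3.95% of all 16650 genes tested were called (2.48% fell and 1.47% rose). Vcam1 stood at 2933 and 2498 in RPM_d7_Spic_KO, against 8022, 7268 and 7589 in RPM_d7_Spic_WT. The groups did not overlap, the knockout mean was 35.6% of wild type, and the log2 change was -1.49 ± 0.18 (SE; limma adjusted p = 3.72e-05). The median log2 change of the 8 genes was 0.34, beside 0 over all genes tested. Red pulp macrophage markers fell in these libraries too (4 of 9, with 0 rising), among them Itgad and Hmox1, as did 5 of 11 general macrophage markers.

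Siglec1 and Epor, which fell in day-7 vavCre spleen, had higher means in Spic_KO without passing. Siglec1 stood at 203.7 and 199.2 in RPM_d7_Spic_KO, against 171.6, 129.3 and 148.5 in RPM_d7_Spic_WT (log2 change 0.43, 95% interval -0.53 to 1.40; limma adjusted p = 0.703). Epor stood at 208.8 and 178.0 in RPM_d7_Spic_KO, against 140.5, 148.9 and 132.7 in RPM_d7_Spic_WT (0.45, 95% interval -0.37 to 1.27; limma adjusted p = 0.606). Neither pair of groups overlapped, and the intervals, which use the spread of all 11 libraries, are wide. The 12 erythroid markers without globins summed to 1158 to 1209 in RPM_d7_Spic_KO against 1646 to 2052 in RPM_d7_Spic_WT and Hba-a2, an alpha globin gene on the full list of 16, rose to 27115 ± 276 in RPM_d7_Spic_KO against 15300 ± 2966 in RPM_d7_Spic_WT (SD, n = 2 and 3; log2 change 0.84, limma adjusted p = 0.015). Car2 fell (-1.35), and the part of erythroid RNA in these Epor values was not tested. The difference between these changes and those in vavCre was not tested, since the tables were normalised separately.

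Dnase2a stood at 724.9 and 692.8 in RPM_d7_Spic_KO, against 305.1, 303.1 and 293.9 in RPM_d7_Spic_WT. The groups lay far apart and within each the libraries differed little, with SDs of 22.7 and 5.97. The log2 change was 1.23 ± 0.41 (SE; 95% interval 0.38 to 2.09) and did not pass over all genes (limma adjusted p = 0.103). The estimate of spread includes the adult libraries, in which Dnase2a ranged over 273.8 to 886.4 in RPM_TAM_CreERT2 and stood at 664.7 and 239.1 in RPM_TAM_WT. Fitted on the 5 Spic libraries alone, the same change passed (limma adjusted p = 0.0222), and it passed with DESeq2 on recovered reads (adjusted p = 0.032), with a range of 0.0222 to 0.276 over 15 alternatives. Read depth went with genotype here, at 2.85 to 3.07 M reads in RPM_d7_Spic_KO and 4.235 to 6.29 M in RPM_d7_Spic_WT. In each adult group the Dnase2a level was lower the deeper the library, from 886.4 at 0.693 M reads to 273.8 at 1.67 M in RPM_TAM_CreERT2. The RPM_d7_Spic_WT levels were not ordered by depth, and the part of depth in the Dnase2a change was not tested. Mast1, the overlapping gene, reached at most 38.4 in this table.

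The remaining members showed smaller differences. Itgav stood at 244.8 and 215.8 in RPM_d7_Spic_KO, against 154.9, 180.8 and 197.7 in RPM_d7_Spic_WT, which did not overlap (0.38, limma adjusted p = 0.615). Pecam1 stood at 104.6 and 73.5 in RPM_d7_Spic_KO, against 167.3, 116.0 and 140.8 in RPM_d7_Spic_WT, and did not overlap either (-0.67, limma adjusted p = 0.491). Maea and Icam1 overlapped between the groups (0.31 and -0.37). In the lists beside them, Itgad (-8.83), F11r (-3.02) and Itgb2 (-1.89) fell and Itgal rose (2.56), of which Itgb2 and Itgal were named after their values were seen. Cd33 rose (1.72) and Siglece fell (-2.46), and Bcl2l1 and Grb2 of the Epo signalling list rose (1.96 and 1.1). In the CTLH list 0 of 10 passed by limma, edgeR or DESeq2, with 2 at an unadjusted p under 0.05, where limma called 3.95% of all genes. In the DNA list 0 of 15 passed by limma or edgeR and 2 by DESeq2, with 7 at an unadjusted p under 0.05.

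**Figure D4:**
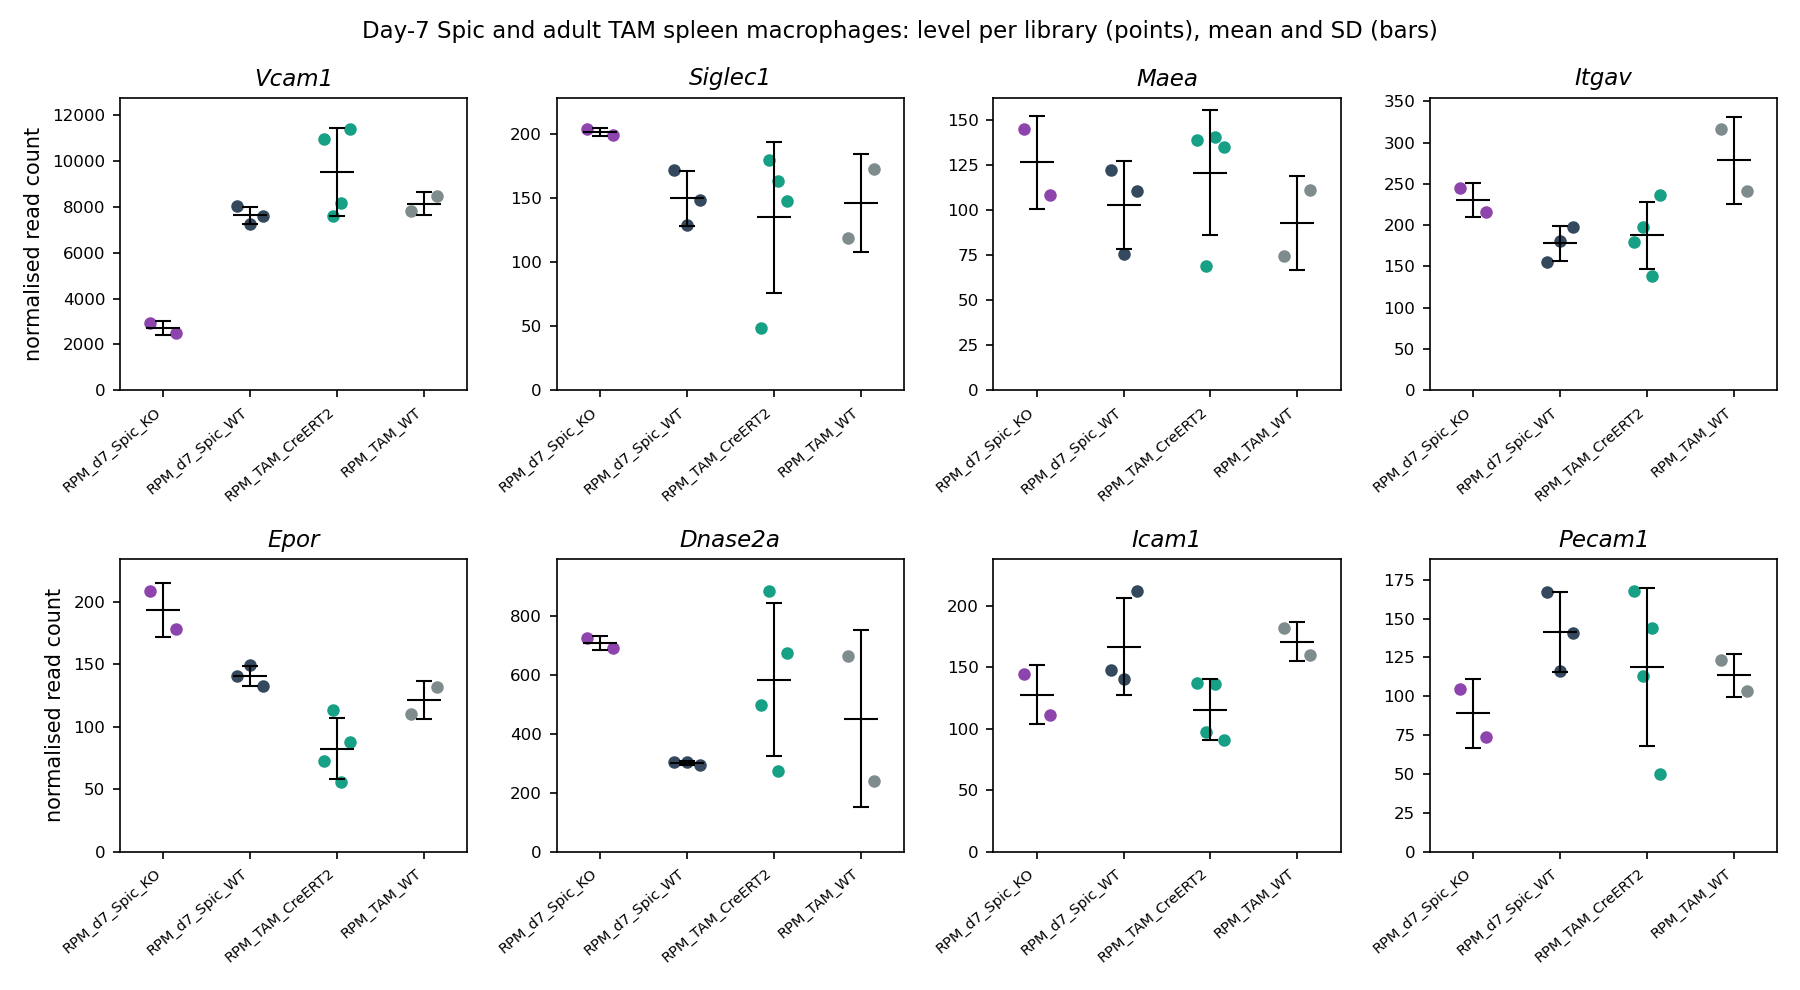
Level of each gene in the 11 libraries of the other table, as normalised read counts on an axis that starts at 0 (points: libraries; long bar: mean; whiskers: SD; n = 2, 3, 4 and 2 from left to right). Vcam1 is low in the 2 RPM_d7_Spic_KO libraries alone, and Dnase2a is scattered in both adult groups and tight in the day-7 groups.

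In adult spleen macrophages the comparison of CreERT2 with wild type called 0 of the 8 genes by limma, edgeR or DESeq2, and 0 had an unadjusted p under 0.05. Of all genes tested 0.144% were called (0.0601% rose and 0.0841% fell), so calls were rare in this comparison, while Itgad fell in it (-4.30, limma adjusted p = 0.00289; called by DESeq2 and not by edgeR). Vcam1 stood at 10940, 7594, 8159 and 11380 in RPM_TAM_CreERT2, against 7797 and 8490 in RPM_TAM_WT. The groups overlapped, and the log2 change of 0.20 had a 95% interval of -0.15 to 0.56 before adjustment (limma adjusted p = 0.784). That interval lies above the Spic_KO change of -1.49 from the same table, and the difference between the 2 changes was not tested. Siglec1 stood at 48.8, 179.5, 163.7 and 147.7 in RPM_TAM_CreERT2, against 119.2 and 172.9 in RPM_TAM_WT, with replicate 1 far below the rest (-0.25, 95% interval -1.16 to 0.67).

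Epor stood at 72.7, 113.0, 55.5 and 87.3 in RPM_TAM_CreERT2, against 110.2 and 132.0 in RPM_TAM_WT, with 1 CreERT2 library inside the wild-type range (-0.60, 95% interval -1.37 to 0.18; limma adjusted p = 0.734). The 16 erythroid markers, mostly globins, made up 12.7 to 20.7% of all signal in RPM_TAM_CreERT2 and 7.52 to 11.1% in RPM_TAM_WT. In RPM_d7_Spic_WT their share was 5.2 to 7.35%. The 12 without globins summed to 1028 to 2016 in RPM_TAM_CreERT2 and 1258 to 2584 in RPM_TAM_WT. Their sum in RPM_d7_Spic_WT was 1646 to 2052, so the higher adult share lay in the globins. The part of erythroid RNA in the adult Epor values was not tested. Itgav stood at 179.5, 197.2, 138.3 and 236.3 in RPM_TAM_CreERT2, against 316.0 and 241.3 in RPM_TAM_WT, and Icam1 at 137.4, 97.5, 136.4 and 91.2 against 182.1 and 159.9. The log2 change was -0.58 for each of these 2 genes, and neither passed (limma adjusted p = 0.701 and 0.729). Maea, Dnase2a and Pecam1 overlapped, with log2 changes of 0.35, 0.42 and -0.06, and the sign for Pecam1 turned under median centring (0.02). In the 4 functional lists other than integrins, Epo signalling, CTLH, DNA and Siglec genes, limma called 0, with 2, 1, 4 and 1 genes at an unadjusted p under 0.05, and DESeq2 called 1 Siglec gene while edgeR called 0.

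**Figure D5:**
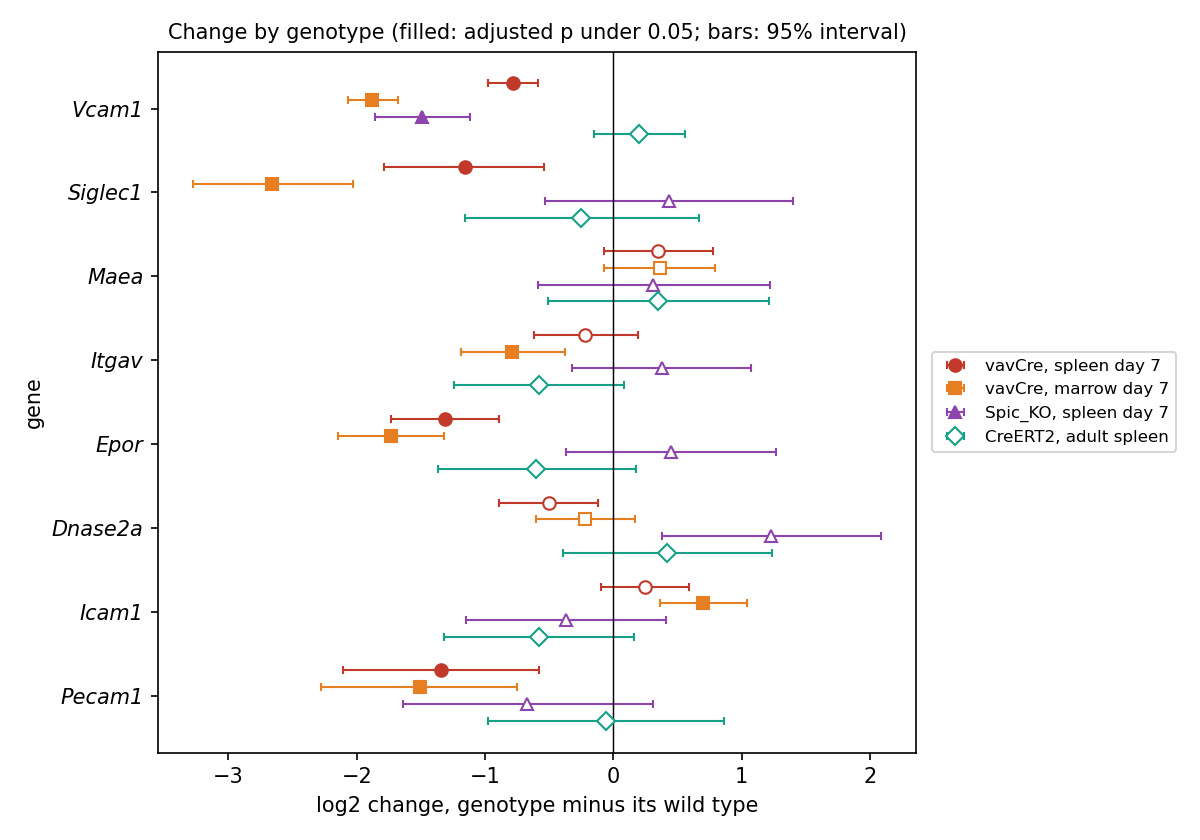
Log2 change of each gene in the 4 genotype comparisons, genotype minus its own wild type (points: limma estimate; bars: 95% interval before adjustment; filled: adjusted p under 0.05). The values of Vcam1 lie at -0.78, -1.88 and -1.49 in the day-7 comparisons and at 0.20 in adults, while the Maea values lie between 0.31 and 0.36.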

How the data were processed

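Per the labels, RNA of sorted cells was primed with oligo-dT, amplified and made into Nextera XT libraries. The submitters' processing notes name STAR, edgeR and GRCm38, without versions. The deposited values are signal in the form of normalised counts, and the authors' normalisation is not described further. In each library 96.6 to 100% of low values were whole multiples of 1 step (tolerance 0.1), from which reads and depth were recovered. Whether counting used strand is not given in the sources used here.

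A gene entered the test if 2 or more libraries reached a value of 1. Testing used limma 3.58.1 (R 4.3.3; trend, robust) on log2(value + 1), with 1 mean per group over all libraries of a table and Benjamini-Hochberg adjustment. Changes of low genes are understated on this scale. The steps were tested on simulated data. edgeR 4.0.16 and DESeq2 1.42.0 on recovered reads, other filters, pseudocounts, centring and left-out libraries were alternatives. The members and gene lists were chosen with earlier results of these data known. All 8 members are named, with the 2 nearest genes for each called member and up to 2 called genes of smallest p per list and comparison. Further called genes of a list are named where few were left, after their values were seen. Each of the 23 replicate pairs differed by more than sampling noise. Coordinates and lengths are from GENCODE on GRCm38.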

Additional observations from a re-analysis of the deposited data

Results flagged for a closer look

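The vavCre change of Vcam1 differed between tissues by a test of the difference itself, at 1.1 on the log2 scale, spleen minus marrow (limma adjusted p = 0.000584). All 3 libraries of each vavCre group were lower than all wild-type libraries of their tissue, and the difference kept its call in all 21 alternatives, with values of 1.03 to 1.19.

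Maea in RPM_TAM_CreERT2 had 1 library apart from the others of its group. Replicate 2 stood at 68.69, against 134.8 to 140.2 in the other 3, and its gap to the nearest was 0.924 of the group's range. It is the library with 0.693 M reads. Chance marks about 1 in 20 groups in this way.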

How the results depend on the processing

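Of 16 calls, 10 held in all alternatives run: Vcam1 in its 5 comparisons, Epor in both vavCre comparisons, Siglec1 in marrow, and Pecam1 in both tissue comparisons. In a fit of the compared groups alone, 3 genes passed for vavCre in marrow, and 2 for Spic_KO, as with DESeq2 (2). Leaving out 1 library gave 2 to 3 calls for vavCre in spleen. No called value changed sign. The signs that turned were of values that did not pass. For the Maea tissue difference of the vavCre change they were 0.01 with edgeR (TMM, and 0.01 with RLE) and 0.01 with DESeq2, and -0.19 to 0.10 with 1 library left out. For Pecam1 in CreERT2 they were 0.02 with median centring, 0.04 with edgeR TMM, 0.09 with RLE and 0.09 with DESeq2, and -0.27 to 0.31 with 1 library left out. Other ranges with 1 library left out were -0.23 to 0.02 for Dnase2a and -0.24 to 0 for Maea (spleen minus marrow, vavCre), -0.18 to 0.11 for Maea (spleen minus marrow, WT), -0.21 to 0.48 for Pecam1 (difference of the vavCre changes), and -0.51 to 0.18 for Siglec1 and -0.31 to 1.16 for Dnase2a in CreERT2. The cause was not tested. Same-numbered libraries did not deviate together (r = -0.05 to 0.07 over 15 pairs). The replicate block gave 4, 6, 1, 1, 2 and 1 calls in the order vavCre spleen, vavCre marrow, their difference, spleen minus marrow in WT and in vavCre, and Spic_KO. The adult comparison is the exception. No paired analysis was possible because its groups, RPM_TAM_CreERT2 and RPM_TAM_WT, share 1 number. The adult comparison has 2 wild-type libraries and 0.693 to 1.67 M reads in RPM_TAM_CreERT2. Counts over all genes moved by more than 1.5 times in some settings. DESeq2 called 1290 genes for vavCre in spleen (limma 835), 952 and 950 for spleen minus marrow in WT and in vavCre (588 and 529), 1694 for Spic_KO (658; edgeR RLE 1035; block 332; Spic libraries alone 425) and 130 for CreERT2 (24). For the difference of the vavCre changes edgeR called 31 genes and DESeq2 93 (limma 18). Fits of the compared groups alone called 584 genes for vavCre in marrow (1182) and 319 for spleen minus marrow in vavCre (529). Without a filter on low values the counts were 11 for the difference of the vavCre changes and 5 for CreERT2, where pseudocounts of 0.1 and 5 gave 14 and 9 and median centring 10. A log2 change of at least 1 left 546 genes for vavCre in spleen and 329 for spleen minus marrow in WT. With 1 library left out, counts ran over 536 (without RPM_d7_vavCre replicate 2) to 649 for vavCre in spleen, 890 to 1102 in marrow, 11 to 24 for their difference, 269 (without RPM_d7_WT replicate 3) to 665 for spleen minus marrow in WT, 271 (without RPM_d7_vavCre replicate 1) to 479 in vavCre, 261 (without RPM_d7_Spic_WT replicate 1) to 1972 (without RPM_d7_Spic_KO replicate 1) for Spic_KO, and 2 (without RPM_TAM_WT replicate 1) to 18 for CreERT2.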
